A study of Mus musculus with 64 samples.

Results

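The transcripts of 38 genes of the hypoxia response and of glycolysis were compared in 8 mouse mammary tumors that differ in the dose of Abi1, an adaptor of the WAVE complex that drives branched actin assembly. The genes were chosen by name, with earlier results of these data known, so counts of members beside all genes are a description. The names are those in the table of counts that the authors deposited, and 36 of the genes carry a name there. Vegfa and Tpi1 are listed in it without a name and were found by their identifiers, so all 38 were measured, out of 55385 gene identifiers counted. All mice were females that express the polyoma virus middle T antigen (PyMT) in mammary epithelium, where they develop tumors. The heterozygous KO is mouse G164 (Abi1 fl/wt with Cre, tumors 3 and 6) and its control is mouse G144 (Abi1 fl/wt without Cre, tumors 6 and 8). The homozygous KO is mouse G174 (Abi1 fl/fl with Cre, tumors 1 and 6) and its control is mouse G184 (Abi1 fl/fl without Cre, tumors 6 and 9). Cre is driven by the MMTV promoter (Line D), which is active in mammary epithelium, and recombination in other cells of these tumors was not measured here. Every mouse carries at least 1 floxed allele. Each genotype is 1 mouse with 2 tumors, so a p-value here reflects how far 2 tumors of 1 animal lie apart, and genotype cannot be told apart from mouse. By the study's records G164 and G184 were older than G144 and G174, so in each comparison the KO and its control also differ in age.

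Cells short of oxygen raise the HIF transcription factors, pairs of an oxygen-regulated alpha subunit (HIF-1α from Hif1a, HIF-2α from Epas1) and a stable beta subunit. In the presence of oxygen prolyl hydroxylases mark the alpha subunits for destruction, and when oxygen falls the subunits last and bind the core motif ACGTG or GCGTG in target genes. The targets include a growth factor for vessels, glucose and lactate transporters, most enzymes of glycolysis and the prolyl hydroxylases themselves. Protein stability controls HIF-1α, so its transcript need not follow its activity, and solid tumors use glycolysis at high rates with and without hypoxia.

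The tumors had 50346075 to 69264893 counts over genes (median 66415184). The members took 0.688% and 0.755% of these counts in G164, against 0.803% and 0.899% in G144, and 0.810% and 0.846% in G174, against 0.714% and 0.627% in G184. Values are given in CPM, the counts of a gene relative to the TMM-scaled total of its tumor, and comparisons as log2 fold changes with their standard error (SE), with adjusted p-values from the quasi-likelihood test of edgeR over 22187 genes and a threshold of 0.05. A gene is said to be called where edgeR passed this threshold, and calls that DESeq2 alone made are named as such. Abi1, the targeted gene, had 63.1 and 66.7 CPM in the tumors of G164, against 111 and 130.1 CPM in those of G144, and 8.93 and 6.47 CPM in G174, against 114 and 122 CPM in G184. Its log2 fold change was −0.89 ± 0.16 (SE, adjusted p = 0.0362) in heterozygotes and −3.94 ± 0.18 (SE, adjusted p = 0.000297) in homozygotes. Epithelial markers summed to 4146 to 4937 CPM in every tumor, and none of them was at 0. Tumor 3 of G164 and tumor 8 of G144 also held transcripts of skeletal muscle, with 404 and 322 CPM summed over 15 markers against 7.71 to 10.4 CPM in the other 6 tumors, and results are given below also without both.

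Most members called were lower in the heterozygous KO and higher in the homozygous KO than in their controls. In heterozygotes 4 of 38 members fell and 0 rose: Egln3, Aldoc, Gapdh and Eno1 were lower in G164 than in G144. Over all genes 1.29% were called lower and 2.72% higher there. The count of 0 is from edgeR. At an unadjusted p under 0.05, 3 members were higher and 12 lower, beside 2851 and 2756 of the 22187 genes. DESeq2 called 7 members lower and 0 higher, beside 1351 and 1390 of all genes, with Car9, Tpi1 and Pkm added to the 4. In homozygotes 10 members rose (Egln3, Car9, Ddit4, Ero1l, Aldoc, Tpi1, Gapdh, Pgk1, Pgam1 and Eno1) and 1 fell (Epas1), beside 5.44% of all genes called higher and 7.70% called lower. DESeq2 called 18 members higher and 2 lower in homozygotes, beside 2110 and 2402 of the 22187 genes. It added Vegfa, Slc16a3, Bnip3, Bnip3l, Ankrd37, Kdm3a, P4ha2 and Pdk1 to those higher and Pfkp to those lower. The median log2 fold change of the members was −0.24 in heterozygotes, beside 0.02 over all genes tested, and 0.41 in homozygotes, beside −0.0012 over all. Of the 38 members, 29 had a negative fold change in heterozygotes and 29 a positive one in homozygotes. All 4 calls in heterozygotes were lost when any tumor of G164 or G144 was left out, and when both tumors with muscle transcripts were. In homozygotes 6 members were then called, 1 without tumor 9 of G184, 6 without tumor 6 of G184 and 7 without tumor 6 of G174. In these bulk samples fewer cells of a type and less RNA per cell cannot be told apart.

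**Figure D1:**
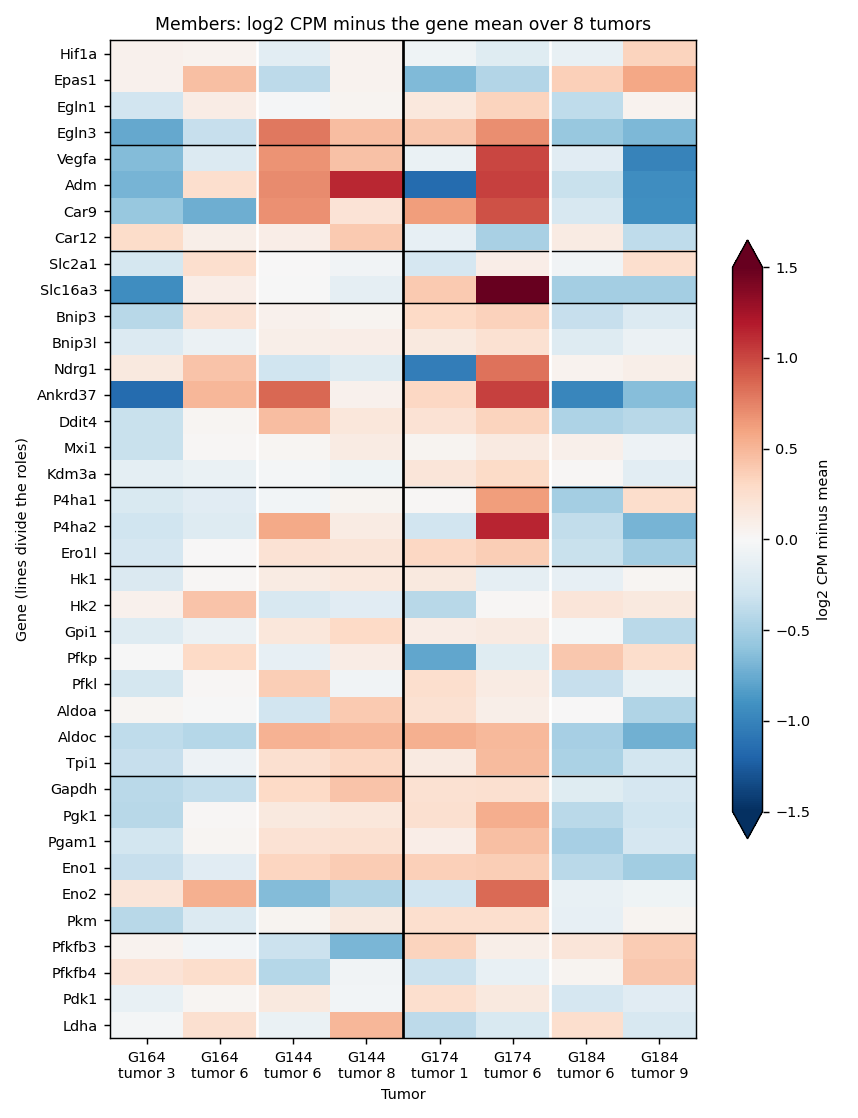
Each row is a member and each column a tumor; color gives log2 CPM minus the gene's mean over the 8 tumors, lines divide the roles in the order of the text, and the heavy line divides heterozygous from homozygous mice. Egln3, Aldoc, Gapdh and Eno1 are above their mean in all tumors of G144 and G174 and below it in all tumors of G164 and G184, while Epas1 is at its lowest in both tumors of G174.

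Without regard to tests, 20 members had both tumors of G164 below both of G144, and 7 had both above, beside 28.8% and 31.3% of all genes. Both tumors of G174 lay above both of G184 for 23 members and below them for 4, beside 29.9% and 29.9% of all genes. The middle member stood at −0.26 and 0.02 on the log2 scale from its own mean in tumors 3 and 6 of G164, against 0.10 and 0.13 in tumors 6 and 8 of G144. It stood at 0.15 and 0.31 in tumors 1 and 6 of G174, against −0.19 and −0.22 in tumors 6 and 9 of G184. Tumor 6 of G164 thus lay closer to the tumors of G144 than tumor 3 did, with 23 of 38 members above their mean against 9 in tumor 3. Within a mouse the tumors often differed: 25 members stayed within 1.5-fold in every mouse, and 7 (Vegfa, Adm, Slc16a3, Ndrg1, Ankrd37, P4ha2 and Eno2) differed at least 2-fold between the tumors of some mouse. Tumor 6 of G174 was the higher in this mouse for all 7 of them.

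The HIF subunits and oxygen sensors did not move as a group. Egln3 (ENSMUSG00000035105.5, chr12:54178981-54203860 of GRCm38) encodes PHD3, a prolyl hydroxylase that HIF itself induces. It had 64.7 and 87.1 CPM in G164, against 191 and 152 CPM in G144. It had 145 and 178 CPM in G174, against 74.6 and 68.9 CPM in G184. All tumors of G144 and G174 lay above all tumors of G164 and G184, so neither pair overlapped. The log2 fold change was −1.18 ± 0.19 (SE, adjusted p = 0.0293) in heterozygotes, a 2.26-fold decrease, and 1.17 ± 0.19 (SE, adjusted p = 0.0128) in homozygotes, a 2.26-fold increase. Egln1, which encodes the main oxygen sensor PHD2, was called in neither (log2 fold changes −0.08 and 0.40). Epas1 (ENSMUSG00000024140.10, chr17:86753700-86833410) had 46.5 and 60.8 CPM in G164, against 34.0 and 46.5 CPM in G144, where tumor 3 of G164 and tumor 8 of G144 were nearly equal. In G174 it had 28.1 and 32.8 CPM, against 57.1 and 66.6 CPM in G184. It fell by 1.02 on the log2 scale in homozygotes (SE 0.20, adjusted p = 0.0219), and in heterozygotes its log2 fold change was 0.42 ± 0.20 (SE, adjusted p = 0.240). Epas1 is known for its expression in vessel walls. The summed level of 12 endothelial markers was 177 and 149 CPM in G174, against 238 and 238 CPM in G184. In this comparison 3 of 12 were called lower, beside 7.70% of all genes. The part of endothelium in the Epas1 result was not tested. Hif1a had 167 and 166 CPM in G164, against 143 and 166 CPM in G144, and 152 and 141 CPM in G174, against 148 and 202 CPM in G184. Its 95% intervals ran from −0.26 to 0.48 in heterozygotes and from −0.62 to 0.12 in homozygotes. No change of the Hif1a transcript was detected, changes within these intervals are not excluded, and the protein was not measured.

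Among secreted and cell surface proteins, Car9 (ENSMUSG00000028463.14, chr4:43506966-43513729) encodes a membrane-bound carbonic anhydrase that is widely used as a mark of hypoxic tumor regions. It had 54.7 and 68.7 CPM in G174, against 30.1 and 18.7 CPM in G184. No value of one mouse reached those of the other, and the log2 fold change was 1.34 ± 0.26 (SE, adjusted p = 0.0220), a 2.53-fold increase. In heterozygotes it had 23.9 and 21.3 CPM in G164, against 56.8 and 40.9 CPM in G144. That difference of −1.11 on the log2 scale missed the threshold (SE 0.26, adjusted p = 0.0610) with edgeR and passed it with DESeq2 (adjusted p = 0.00120). Vegfa, the growth factor that draws new vessels, followed the same order with a larger spread. It had 45.6 and 61.9 CPM in G164, against 114 and 97.3 CPM in G144, and 66.7 and 143.5 CPM in G174, against 63.8 and 35.9 CPM in G184. Tumor 1 of G174 lay close to tumor 6 of G184, and neither comparison was called by edgeR (log2 fold changes −0.97 and 1.08, adjusted p = 0.186 and 0.118), while DESeq2 called the homozygous one (adjusted p = 0.0266). Adm, the vasodilator adrenomedullin, had 2.67 and 12.1 CPM in G174, against 4.70 and 3.11 CPM in G184, so that 1 tumor of the homozygous KO was below and the other above both tumors of its control. Car12, a second membrane carbonic anhydrase, was the most abundant of these genes per length, at 337 ± 30.0 CPM in G164 and 355 ± 51.1 CPM in G144, and at 242 ± 42.5 CPM in G174 and 275 ± 66.7 CPM in G184 (SD over 2 tumors). The log2 fold changes of −0.07 and −0.19 were within the spread between tumors.

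**Figure D2:**
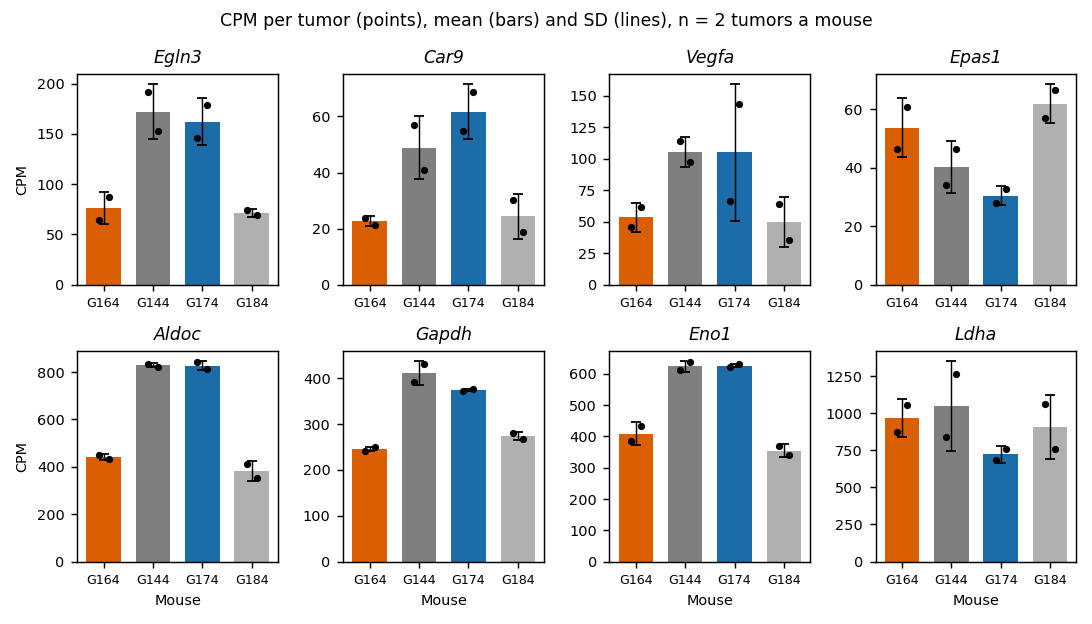
CPM of 8 members by mouse; points are tumors, bars are means and lines are the SD over 2 tumors, with all axes from 0. Egln3, Car9, Aldoc, Gapdh and Eno1 are high in G144 and G174 and low in G164 and G184, Epas1 is lowest in G174 at 28.1 and 32.8 CPM, and the Ldha bars overlap within their SD in the heterozygous mice.

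EdgeR called neither the glucose transporter nor the lactate transporter in a KO comparison, and DESeq2 called Slc16a3 higher in homozygotes. Slc2a1, which encodes GLUT1, the main glucose carrier of hypoxic cells, had 37.5 and 53.3 CPM in G164, against 45.1 and 43.4 CPM in G144, and 37.8 and 48.3 CPM in G174, against 43.5 and 53.7 CPM in G184. The levels overlapped in both pairs, and the 95% intervals of the log2 fold change, −0.44 to 0.51 and −0.65 to 0.30, do not exclude changes of up to those bounds. Slc16a3, the lactate exporter MCT4, stood at 8.17 and 18.9 CPM in G174, against 4.37 and 4.37 CPM in G184. That gave 1.63 ± 0.45 (SE, adjusted p = 0.0572) with edgeR and an adjusted p of 0.00256 with DESeq2, with tumor 6 of G174 at 2.32 times the level of tumor 1. In heterozygotes its log2 fold change was −0.25.

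Of the 7 mitochondrial autophagy, stress and other HIF targets, edgeR called Ddit4 in homozygotes, and DESeq2 also called Bnip3, Bnip3l, Ankrd37 and Kdm3a higher there. Ddit4 (ENSMUSG00000020108.4, chr10:59949669-59951834), which encodes the mTORC1 inhibitor REDD1, had 72.0 and 78.1 CPM in G174, against 44.9 and 46.4 CPM in G184, a difference of 0.72 ± 0.15 (SE, adjusted p = 0.0277). In heterozygotes it had 49.0 and 62.8 CPM in G164, against 84.8 and 69.3 CPM in G144, and −0.46 on the log2 scale (adjusted p = 0.121). Bnip3 and Bnip3l, receptors that mark mitochondria for autophagy, had log2 fold changes of 0.59 and 0.32 in homozygotes (adjusted p = 0.0975 and 0.0628), with both tumors of G174 above both of G184 for each. The histone demethylase Kdm3a gave 0.31 in homozygotes (adjusted p = 0.0822) and −0.08 in heterozygotes. Ndrg1, a stress-induced gene, had 72.4 and 259.6 CPM in the tumors of G174, the lowest and the highest of all 8 tumors, against 154 and 157 CPM in G184. Ankrd37, at 1.12 to 5.10 CPM, had a DESeq2 adjusted p of 0.0392 in homozygotes and was not called by edgeR, and Mxi1, a MYC antagonist, was called by neither tool in either KO comparison.

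Ero1l (ENSMUSG00000021831.9, chr14:45283087-45318771), the oxidase that forms disulfide bonds in the endoplasmic reticulum, rose in homozygotes. It had 97.0 and 101 CPM in G174, against 62.0 and 55.0 CPM in G184, with a log2 fold change of 0.76 ± 0.12 (SE, adjusted p = 0.0117). In G164 it had 65.5 and 78.7 CPM, against 90.9 and 89.2 CPM in G144, a difference that did not pass (log2 fold change −0.32, SE 0.12, adjusted p = 0.150). The collagen prolyl 4-hydroxylase subunits P4ha1 and P4ha2 were not called by edgeR, and DESeq2 called P4ha2 higher in homozygotes (adjusted p = 0.0325). P4ha2 had 13.1 and 35.6 CPM in G174, so that 1 tumor was near the 12.4 and 9.95 CPM of G184 and the other well above.

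The 14 glycolytic enzymes measured here, from hexokinase to pyruvate kinase, held most of the calls. Of the 14, 3 fell in heterozygotes, beside 1.29% of all genes called lower, and 6 rose in homozygotes, beside 5.44% called higher. The median log2 fold change of the 14 enzymes was −0.34 in heterozygotes and 0.43 in homozygotes, against −0.16 and 0.40 over the other 24 members. Summed over the 14 enzymes, the tumors of G164 had 4223 and 4633 CPM, against 5556 and 6119 CPM in G144. The sum was 5950.2 and 5902 CPM in G174, against 4415 and 4227 CPM in G184. Every tumor of G144 and G174 was above every tumor of G164 and G184.

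In the preparatory phase, which spends ATP to make triose phosphates, Aldoc had the smallest adjusted p of all members in both comparisons. Aldoc (ENSMUSG00000017390.15, chr11:78322968-78327781), the aldolase isozyme best known from brain, splits the sugar into triose phosphates. It had 449 and 431 CPM in G164, against 835 and 822 CPM in G144, and 841 and 813 CPM in G174, against 410.5 and 353 CPM in G184. The tumors of a mouse lay close together and far from those of the other mouse of the pair. Its log2 fold change was −0.91 ± 0.11 (SE, adjusted p = 0.0170) in heterozygotes, a 1.88-fold decrease, and 1.12 ± 0.11 (SE, adjusted p = 0.00356) in homozygotes, a 2.17-fold increase. Tpi1 (ENSMUSG00000023456.15, chr6:124810586-124814296), the triose phosphate isomerase, had 314 and 398 CPM in G174, against 205 and 236 CPM in G184, and rose by 0.69 ± 0.15 (SE, adjusted p = 0.0325). In heterozygotes it had 226 and 272 CPM in G164, against 339 and 356 CPM in G144, without an edgeR call (−0.48, adjusted p = 0.118).

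Aldoa, the aldolase of muscle and most other tissues and the most abundant member per length, was called in neither comparison by edgeR or DESeq2. It had 998 and 978 CPM in G164, against 801 and 1288 CPM in G144, and 1149 and 1039 CPM in G174, against 980.2 and 714 CPM in G184. Its highest value was in tumor 8 of G144, which held muscle transcripts. A second identifier named Aldoa, at 2.80 to 4.10 CPM, was kept apart. Hexokinases Hk1 and Hk2, which trap glucose in the cell, and the phosphofructokinases Pfkl and Pfkp, which commit it to glycolysis, were not called by edgeR, and DESeq2 called Pfkp lower in homozygotes. Hk2, the hexokinase most tied to HIF and tumors, went the other way from the enzymes called, with 32.2 and 41.6 CPM in G164, against 26.1 and 27.4 CPM in G144, and 23.2 and 31.2 CPM in G174, against 34.9 and 34.2 CPM in G184 (log2 fold changes 0.46 and −0.34). Pfkp had 87.9 and 134 CPM in G174, against 199.7 and 182 CPM in G184, just short of the threshold with edgeR at −0.78 ± 0.21 (SE, adjusted p = 0.0531) and past it with DESeq2 (adjusted p = 0.00565). Gpi1, the isomerase between them, gave −0.37 in heterozygotes (adjusted p = 0.152) and 0.33 in homozygotes (adjusted p = 0.153).

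In the payoff phase, which makes ATP and pyruvate, 4 of 6 enzymes rose in homozygotes and 2 fell in heterozygotes. Over all genes 5.44% were called higher in homozygotes and 1.29% lower in heterozygotes. Gapdh (ENSMUSG00000057666.18, chr6:125161715-125166467) oxidizes glyceraldehyde phosphate. It had 242 and 249 CPM in G164, against 392 and 430.3 CPM in G144, and 373 and 376 CPM in G174, against 281 and 268 CPM in G184. The log2 fold changes were −0.75 ± 0.10 (SE, adjusted p = 0.0210) and 0.45 ± 0.09 (SE, adjusted p = 0.0278). A gene often used as a constant reference for expression thus differed between these mice by up to 1.68-fold. Eno1 (ENSMUSG00000063524.13, chr4:150236721-150248879), the main enolase, had 384 and 435 CPM in G164, against 612 and 637 CPM in G144, and 623 and 630.5 CPM in G174, against 369 and 340.3 CPM in G184. It fell by 0.61 on the log2 scale in heterozygotes (SE 0.11, adjusted p = 0.0357) and rose by 0.82 ± 0.11 (SE, adjusted p = 0.00750) in homozygotes. Neither pair of mice overlapped in Gapdh or in Eno1.

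Pgk1 (ENSMUSG00000062070.12, chrX:106187100-106203699), the phosphoglycerate kinase, and Pgam1 (ENSMUSG00000011752.7, chr19:41911923-41918660), the phosphoglycerate mutase, rose in homozygotes and passed no test in heterozygotes. Pgk1 had 115 and 142 CPM in G174, against 73.3 and 79.3 CPM in G184 (log2 fold change 0.75, SE 0.17, adjusted p = 0.0308). Pgam1 had 43.4 and 55.4 CPM in G174, against 28.9 and 34.2 CPM in G184 (log2 fold change 0.65, SE 0.16, adjusted p = 0.0448). In heterozygotes both gave −0.34, with standard errors of 0.16 and 0.16 and adjusted p = 0.248 and 0.245. Pkm, the pyruvate kinase, had 774 and 895 CPM in G164, against 1061 and 1144 CPM in G144, and 1233 and 1227 CPM in G174, against 945 and 1064 CPM in G184. Both pairs were apart, edgeR called neither, and DESeq2 called the heterozygous one lower with an adjusted p of 0.0251 (log2 fold changes −0.40 and 0.29). Its isoforms M1 and M2 are not told apart by counts per gene. Reads in exon stretches that Pkm shares with Gm49759 on the same strand are counted for neither gene. Exons of Hif1a overlap those of Gm49321 in the same way. Eno2, the neuronal enolase, was near the lower end of the members at 1.19 to 3.34 CPM.

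**Figure D3:**
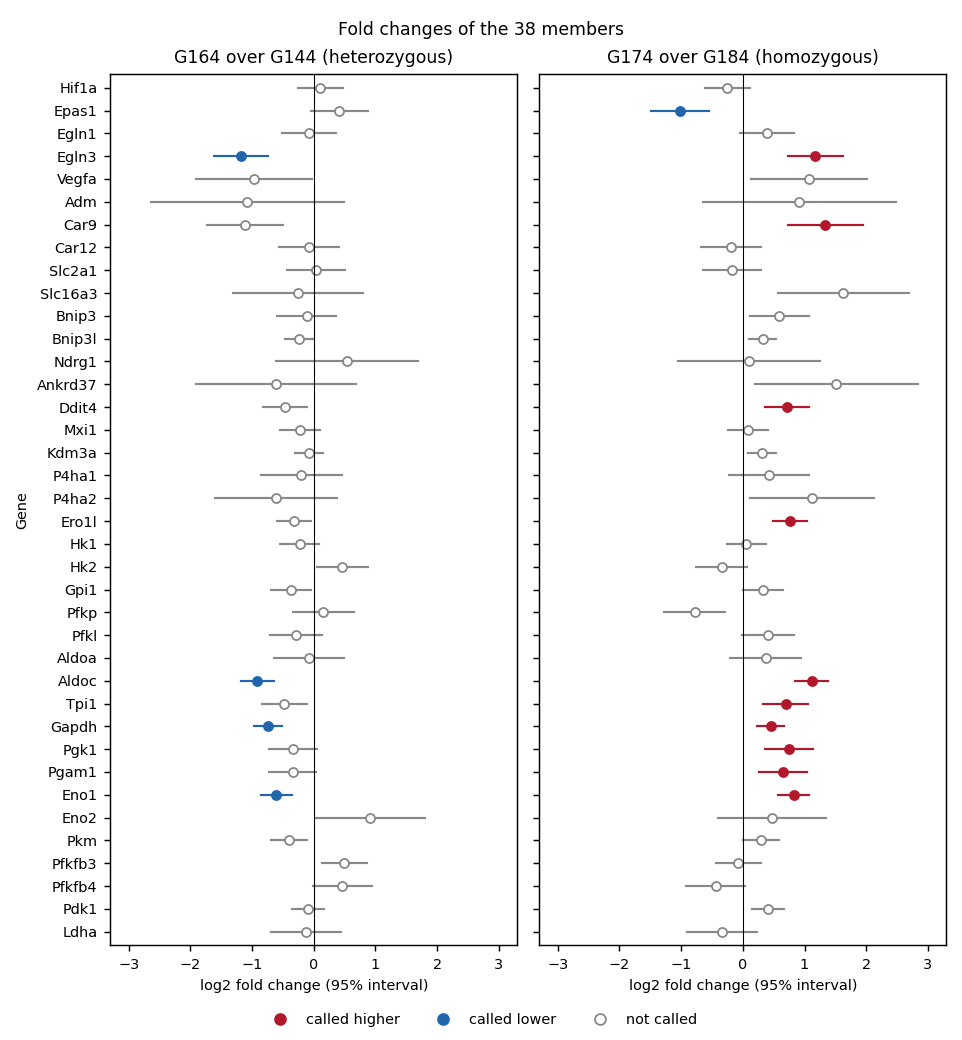
Log2 fold change of each member with its 95% interval, G164 over G144 on the left and G174 over G184 on the right; filled points passed an adjusted p of 0.05. The 4 members called lower in heterozygotes (Egln3, Aldoc, Gapdh and Eno1) are all called higher in homozygotes, and Epas1 is the one called lower there.

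Among the 4 genes of glycolytic regulation and the fate of pyruvate edgeR called 0 in either KO comparison (1 higher at an unadjusted p under 0.05 in each), and DESeq2 called Pdk1 higher in homozygotes. Ldha, the lactate dehydrogenase subunit that HIF induces, was the second most abundant member per length. It had 877 and 1058 CPM in G164, against 837 and 1265 CPM in G144, and 684 and 762 CPM in G174, against 1063 and 756 CPM in G184. The levels overlapped in both pairs, with 95% intervals of −0.69 to 0.45 and −0.90 to 0.24. Pdk1, a kinase that inhibits pyruvate dehydrogenase, had 127 and 117 CPM in G174, against 88.9 and 94.6 CPM in G184. It missed the edgeR threshold by little in homozygotes (log2 fold change 0.41, SE 0.11, adjusted p = 0.0510). Pfkfb3 and Pfkfb4, which make the activator of phosphofructokinase, had log2 fold changes of 0.50 and 0.46 in heterozygotes and −0.07 and −0.44 in homozygotes.

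The difference between the KO comparisons (homozygous minus heterozygous, which uses all 8 tumors and shares them with both) was itself tested. It also sets the younger mice, G144 and G174, over the older mice, G164 and G184. Zygosity and age therefore cannot be told apart in it. The difference was called for 15 members, 14 higher and 1 lower, beside 12.0% and 13.1% of all genes. The median was 0.66 for the members and −0.02 for all genes. Car9 and Egln3 had the largest differences, of 2.45 ± 0.37 (SE, adjusted p = 0.00605) and 2.35 ± 0.26 (SE, adjusted p = 0.00268). Vegfa, called by edgeR in neither comparison alone, differed by 2.05 ± 0.56 (SE, adjusted p = 0.0388), and Aldoc by 2.03 ± 0.16 (SE, adjusted p = 0.000949). Gpi1, Pkm and Bnip3l were also called here and in neither KO comparison, with differences of 0.70, 0.69 and 0.56. These calls and that of Vegfa were lost in 7 to 9 of 16 alternatives, most of them with 1 tumor left out. Of the 14 glycolytic enzymes 8 were called, and each of these was higher. Epas1 was the member called lower, at −1.44 ± 0.28 (SE, adjusted p = 0.0139). With scaling by library size alone the call went to 12 members higher and 4 lower, where the median of all genes moved to −0.12. Without both tumors that held muscle it was called for 7 members, 6 higher and 1 lower, and without tumor 6 of G144 for 9.

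The controls, both without Cre, differed from each other as well. In G184 against G144, which share these tumors with the KO comparisons, 8 members were lower and 1 higher, beside 6.40% and 6.17% of all genes. Those lower were Egln3, Car9, Ddit4, Ero1l, Aldoc, Tpi1, Gapdh and Eno1, and the one higher was Pfkfb3. DESeq2 called 12 members lower and 2 higher, beside 2354 and 2022 of the 22187 genes. Aldoc gave −1.12 ± 0.11 (SE, adjusted p = 0.00345) and Egln3 −1.26 ± 0.19 (SE, adjusted p = 0.0115). Pfkfb3, the inducible PFKFB isozyme, had 48.3 and 55.6 CPM in G184, against 34.2 and 26.5 CPM in G144 (log2 fold change 0.78, SE 0.16, adjusted p = 0.0252). No member was called without both tumors with muscle transcripts, 1 was called without tumor 6 of G144 or tumor 9 of G184, and 4 without tumor 8 of G144. Abi1 itself had a log2 fold change of −0.03 between the controls (SE 0.16, adjusted p = 0.918).

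When each KO mouse was set against the control of the other zygosity, a contrast added after the data were seen, edgeR called no member. Few genes of any kind were called there, so this is not particular to the members. For G164 against G184 edgeR called 0 of 38 members (1 higher and 0 lower at an unadjusted p under 0.05, 0 by DESeq2), beside 0.248% of all genes higher and 0.176% lower. The median was 0.10 and the range −0.28 to 0.71. For G174 against G144 it called 0 of 38 (4 higher and 1 lower unadjusted, 1 higher by DESeq2), beside 0.0361% higher and 0.0541% lower, with a median of 0.03 and a range of −0.62 to 1.19. Aldoc gave 0.21 and −0.0022 in these 2 contrasts, and Egln3 0.08 and −0.09. The members called in both KO comparisons were thus high in a heterozygous mouse without Cre (G144) and a homozygous mouse with Cre (G174), and low in the others. The older mice, G164 and G184, were those with the lower levels, and Abi1 dose, mouse and age cannot be told apart.

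**Figure D4:**
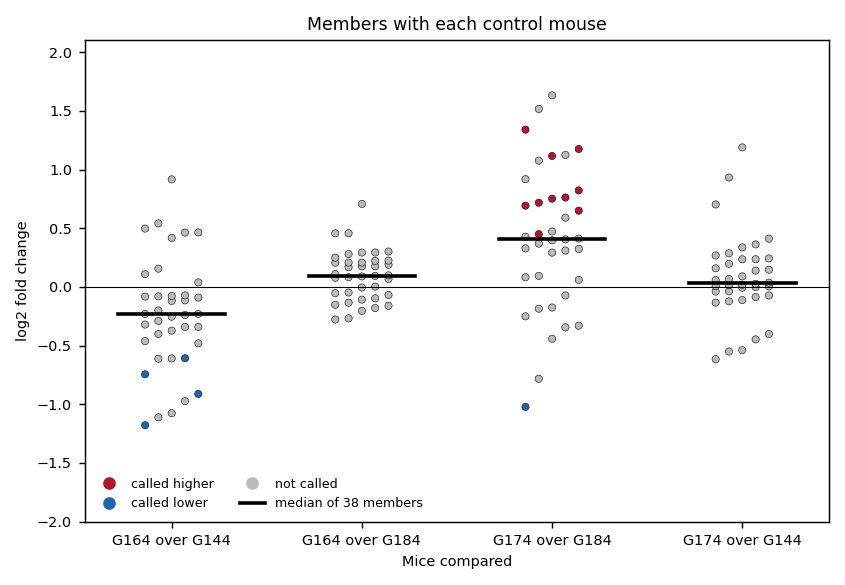
Log2 fold changes of the 38 members for each KO mouse over each control mouse; points are genes, colored where called, and bars are medians. The medians are −0.24 for G164 over G144, 0.10 for G164 over G184, 0.41 for G174 over G184 and 0.03 for G174 over G144.

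To show the sequence near their start sites, promoters were taken from RefSeq (GRCm38.p6, 250 bases before the start to 50 after it), which gave at least 1 promoter for 34 of 38 members. The motif of HIF was searched as ACGTG or GCGTG on either strand, and the palindrome CACGTG counts on both. It was in a promoter of 30 of the 34 members (88.2%), against 46.7% of 27025 genes in the RefSeq set, and in 37 of 49 promoters (75.5%), against 43.8% of 32851. The members' promoters also held more CpG dinucleotides, with a mean of 20.4 against 12.4 in all promoters, and the part of this in the motif count was not tested. A match is a description of the letters and no binding site was measured. Many members were chosen as HIF targets, so a higher share may come with that choice and is no result on these tumors. The promoters of the 4 genes called in both KO comparisons are shown, the first listed where a gene has several, 5′ to 3′ with the motif in capitals.
Egln3, chr12:54203825-54204124, reverse strand: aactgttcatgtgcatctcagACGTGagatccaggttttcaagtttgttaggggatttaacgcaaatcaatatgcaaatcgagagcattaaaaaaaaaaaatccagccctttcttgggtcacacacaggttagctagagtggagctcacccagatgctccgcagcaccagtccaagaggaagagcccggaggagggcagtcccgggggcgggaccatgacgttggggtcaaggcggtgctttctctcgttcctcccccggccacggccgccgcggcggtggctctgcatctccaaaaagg
Aldoc, chr11:78322823-78323122, forward strand: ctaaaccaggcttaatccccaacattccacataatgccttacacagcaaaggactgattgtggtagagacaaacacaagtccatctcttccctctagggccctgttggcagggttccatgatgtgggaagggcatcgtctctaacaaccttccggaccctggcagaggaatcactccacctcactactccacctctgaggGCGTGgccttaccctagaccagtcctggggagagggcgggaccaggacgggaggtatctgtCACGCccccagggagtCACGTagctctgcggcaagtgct
Gapdh, chr6:125165724-125166023, reverse strand: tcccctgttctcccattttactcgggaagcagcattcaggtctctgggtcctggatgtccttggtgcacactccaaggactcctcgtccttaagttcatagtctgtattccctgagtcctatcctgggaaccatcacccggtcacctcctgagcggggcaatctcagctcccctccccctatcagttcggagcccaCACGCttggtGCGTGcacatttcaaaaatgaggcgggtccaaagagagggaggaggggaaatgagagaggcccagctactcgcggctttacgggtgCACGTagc
Eno1, chr4:150236458-150236757, forward strand: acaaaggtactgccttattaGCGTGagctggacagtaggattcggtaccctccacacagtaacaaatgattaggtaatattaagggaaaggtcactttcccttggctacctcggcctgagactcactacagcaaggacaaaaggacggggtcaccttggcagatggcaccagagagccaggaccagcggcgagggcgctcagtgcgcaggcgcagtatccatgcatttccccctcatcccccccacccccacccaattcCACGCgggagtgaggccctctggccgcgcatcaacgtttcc
Egln3 had 1 motif and Gapdh had 3, of which the nearest to the start site began at position −44, where the first transcribed base is 1. Aldoc had 3 in this promoter, with the nearest at position 12, and Eno1 had 2, with the nearest at position 10. Shorter windows of 60 bases are given for 4 of the members called higher in homozygotes and not in heterozygotes, around the motif closest to the start site.
Car9, chr4:43506981-43507040, forward strand: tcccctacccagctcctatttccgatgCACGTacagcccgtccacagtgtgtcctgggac
Ddit4, chr10:59951853-59951912, reverse strand: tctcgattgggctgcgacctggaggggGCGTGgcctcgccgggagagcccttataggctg
Pgk1, chrX:106186942-106187001, forward strand: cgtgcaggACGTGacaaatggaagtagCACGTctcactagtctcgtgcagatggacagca
Pgam1, chr19:41911756-41911815, forward strand: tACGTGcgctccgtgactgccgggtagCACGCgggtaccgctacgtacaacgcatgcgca
The motif nearest to the start began at position −18 in Car9, −115 in Ddit4, −131 in Pgk1 and −88 in Pgam1. Ldha, with 7 matches in its first promoter, and Slc2a1, with 2, held the motif too and were not called, while Tpi1 and Gpi1 had none in this window.

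Per length of the annotated exons, the most abundant members over the 4 mice were Aldoa, Ldha, Pkm, Aldoc, Tpi1 and Eno1, at 341, 276, 209, 189.8, 106 and 93.7 CPM per kb. With the longest coding transcript in place of all exons, a choice made after the data were seen, the order became Aldoa, Ldha, Pkm, Eno1, Gapdh and Aldoc, since Gapdh and Eno1 carry long annotated exons outside their main transcripts. The balance of isozymes, set on the scale of CPM per kb, is given for the families of the members. Aldoc made 28.6 and 28.2% of aldolase in the tumors of G164, against 48.2 and 36.3% in G144, and 39.5 and 41.1% in G174, against 27.2 and 30.6% in G184. Each tumor of G144 and G174 had a larger share than any tumor of G164 and G184. Egln3 made 43.9 and 47.4% of the prolyl hydroxylases in G164, against 68.7 and 57.8% in G144, and 60.1 and 65.3% in G174, against 44.0 and 42.8% in G184. Egln2, the other prolyl hydroxylase of this family and no member, made up most of the rest. With transcript lengths the shares of Aldoc were 20.0 and 19.7% in G164, against 36.7 and 26.2% in G144, and 28.9 and 30.3% in G174, against 18.9 and 21.6% in G184, so the groups kept their order.

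**Figure D5:**
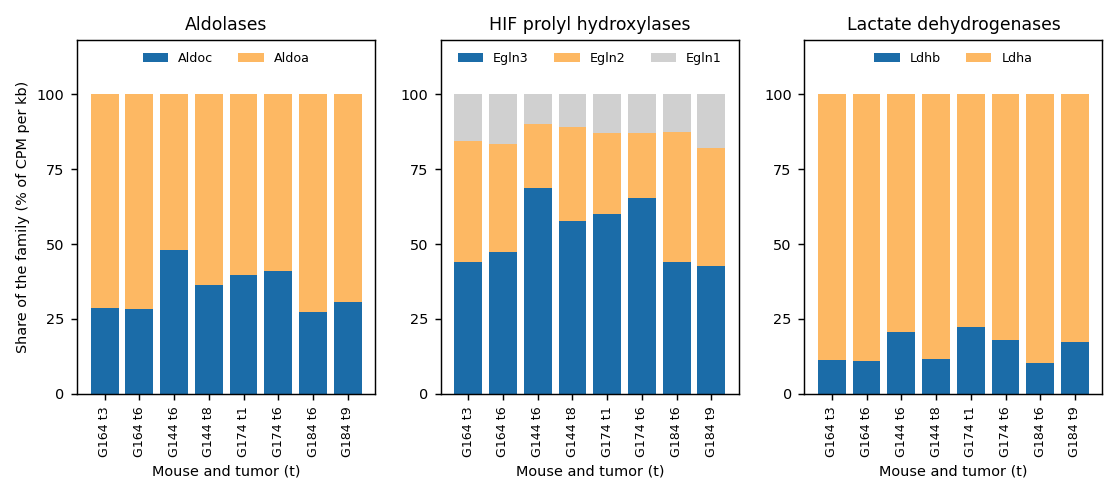
Share of each isozyme in its family, as percent of CPM per kb of annotated exon, for the 8 tumors; the tumors of G164, G144, G174 and G184 run from left to right. The blue share of Aldoc is 28.2% to 28.6% in G164 and 27.2% to 30.6% in G184, below the 36.3% to 48.2% in G144 and 39.5% to 41.1% in G174, and that of Egln3 runs from 42.8% in G184 to 68.7% in G144.

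Among the other families, Slc16a3 made 16.8 and 19.0% of the sum of Slc16a1 and Slc16a3 in G174, against 9.67 and 8.86% in G184, and 6.89 and 10.4% in G164, against 9.83 and 7.04% in G144. Hk1 was the leading hexokinase in every tumor, with 81.0 and 80.3% in G164, against 88.3 and 87.5% in G144, and 89.5 and 83.7% in G174, against 73.0 and 76.2% in G184. In G184 the rest held more Hk3, the hexokinase of myeloid cells, at 13.4 and 11.3%, than in G174, at 1.28 and 2.17%. Eno1 made 90.7% to 97.6% of enolase, and Eno3, the muscle enolase, was highest at 8.76% in tumor 3 of G164. Ldha made 88.8 and 88.9% of lactate dehydrogenase in G164, against 79.2 and 88.2% in G144, and 77.8 and 82.0% in G174, against 89.7 and 82.7% in G184, with overlap in both pairs. Hif1a made 71.0% to 83.5% of the HIF alpha transcripts.

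Reads that fit several places in the genome are left out by this counting. For 20 of 38 members no transcript of another annotated gene matched at 95% identity over 100 bases. For 7 members over 50% of the main transcript matched elsewhere, with Bnip3 at 94.2%, Gapdh at 88.0% (81 other genes, 77 of them pseudogenes) and Eno1 at 85.6%. Reads from such stretches may be lost, so the levels of these genes may be understated, and whether this differed between tumors was not tested. The matching genes of Gapdh held 9.09% as many counts as Gapdh, and those of Eno1 0.236% of Eno1.

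Other genes of the pathways, from lists written with earlier results known, are given beside the share of all genes called. Whether a list stands apart from all genes was not tested. In heterozygotes 2851 of 22187 genes were higher and 2756 lower at an unadjusted p under 0.05, and DESeq2 called 1390 higher and 1351 lower. Of 55 other hypoxia genes, edgeR called 0 in heterozygotes (5 higher and 11 lower at an unadjusted p under 0.05, and 2 higher and 6 lower by DESeq2), and 11 higher and 5 lower in homozygotes, which is 20.0% and 9.09% of the list beside 5.44% and 7.70% of all genes. The median was −0.05 in heterozygotes and 0.26 in homozygotes. The 5 with the largest change among those called were Nos2, Ak4, Stc2, Plod2 and Fam162a. Plod2, a collagen lysyl hydroxylase, had 74.5 and 121 CPM in G174, against 42.7 and 36.2 CPM in G184 (log2 fold change 1.31, SE 0.23, adjusted p = 0.0173). Fam162a, a mitochondrial HIF target, had 42.3 and 47.5 CPM in G174, against 18.0 and 21.8 CPM in G184 (log2 fold change 1.18, SE 0.16, adjusted p = 0.00855). Ak4, the adenylate kinase of mitochondria, gave 1.82 ± 0.46 (SE, adjusted p = 0.0444). Nos2, the inducible nitric oxide synthase of macrophages, was lower at 1.29 and 1.37 CPM in G174, against 8.56 and 6.93 CPM in G184 (log2 fold change −2.54, SE 0.25, adjusted p = 0.00324), and Stc2, a stanniocalcin, was lower as well (log2 fold change −1.41, SE 0.32, adjusted p = 0.0325).

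Of 47 other glycolysis genes 41 were tested. None was called in heterozygotes by edgeR (3 higher and 12 lower unadjusted, and 3 higher and 6 lower by DESeq2), and in homozygotes 2 were higher and 1 lower, or 4.88% and 2.44%, both under the shares of all genes (5.44% and 7.70%). Fbp1, which reverses the phosphofructokinase step, had 34.2 and 16.5 CPM in G174, against 3.44 and 1.93 CPM in G184 (log2 fold change 3.24, SE 0.57, adjusted p = 0.0167). Pck2, the mitochondrial PEP carboxykinase, had 75.8 and 69.1 CPM in G174, against 44.2 and 45.9 CPM in G184 (log2 fold change 0.69, SE 0.10, adjusted p = 0.0106). Both act in gluconeogenesis. Hk3 was lower, at 2.0 and 2.98 CPM in G174, against 21.1 and 19.1 CPM in G184 (log2 fold change −3.01, SE 0.28, adjusted p = 0.00290). In the difference of the comparisons 15 hypoxia and 11 glycolysis genes were higher and 5 and 4 lower. That is 27.3% and 26.8% higher, beside 12.0% of all genes, and 9.09% and 9.76% lower, beside 13.1%. The largest there among hypoxia genes were Nos2, Cxcl12, Stc2, Plod2 and Arnt2 (−3.29, −2.40, −2.17, 2.08 and 1.85). Among glycolysis genes they were Fbp1, Hk3, Pck1, Fbp2 and Slc2a4 (5.18, −4.20, −4.19, 3.92 and −2.42), of which Pck1 and Slc2a4 are also known from adipocytes. Between the controls 3 hypoxia genes were higher and 8 lower in G184, and 1 glycolysis gene was higher and 5 lower. The shares are 5.45% and 2.44% higher, beside 6.17% of all genes, and 14.5% and 12.2% lower, beside 6.40%. The largest of these were Nos2, Tfrc, Arnt2, Plod2 and Trf (3.60, −1.07, −0.99, −0.88 and −0.88), and Hk3, Fbp1, Taldo1, Pdhb and Pck2 (3.06, −2.73, −0.75, −0.46 and −0.42).

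Markers of other cells and of division differed between the same mice. Over all genes edgeR called 2.72% higher and 1.29% lower in heterozygotes, and 5.44% higher and 7.70% lower in homozygotes. At an unadjusted p under 0.05, 2851 of 22187 genes were higher and 2756 lower in heterozygotes, and 3339 and 3678 in homozygotes. DESeq2 called 1390 higher and 1351 lower in heterozygotes, and 2110 and 2402 in homozygotes. Between the controls edgeR called 6.40% of all genes lower. The 12 mitosis markers summed to 903 and 825 CPM in G164, against 1396 and 1687 CPM in G144, and to 910.0 and 1187 CPM in G174, against 865 and 445 CPM in G184. In neither KO comparison was one called by edgeR, with 9 lower and 0 higher at an unadjusted p under 0.05 in heterozygotes (9 lower by DESeq2) and 9 higher and 0 lower in homozygotes (7 higher by DESeq2), and 9 of 12 were called lower in G184 than in G144. The 12 macrophage markers summed to 766 and 852 CPM in G164, against 475 and 626 CPM in G144 (2 of 12 called higher), and to 555 and 585 CPM in G174, against 855 and 1077 CPM in G184 (7 of 12 called lower). The 12 T cell markers were low everywhere, at 34.9 and 39.9 CPM in G164, against 17.4 and 18.0 CPM in G144 (4 of 12 called higher), and 11.3 and 11.9 CPM in G174, against 43.4 and 39.7 CPM in G184 (11 of 12 called lower). The 10 fibroblast markers summed to 3587 and 3180.5 CPM in G164, against 1684 and 1957 CPM in G144 (2 of 10 called higher), and to 2322 and 1313 CPM in G174, against 2376 and 1928 CPM in G184 (1 of 10 called lower). The 10 epithelial markers summed to 4146 and 4336 CPM in G164, against 4611 and 4937 CPM in G144, and to 4582 and 4730.5 CPM in G174, against 4210.0 and 4631 CPM in G184. B cell, neutrophil, adipocyte and basal markers were called higher in G164 for 5 of 10, 2 of 8, 1 of 10 and 2 of 10 tested. In G174 they were called lower for 2 of 10, 1 of 8, 2 of 10 and 0 of 10 (for basal markers 3 were lower and 0 higher at an unadjusted p under 0.05, and 1 was lower by DESeq2). Of 15 skeletal muscle and 7 erythroid markers 0 were called in either KO comparison (0 of muscle and at most 2 of erythroid at an unadjusted p under 0.05, 0 by DESeq2). No macrophage, T cell, fibroblast or epithelial marker was at 0 in a tumor. Macrophage and T cell markers were thus low where the glycolytic enzymes were high, in G144 and G174, and the part of cell makeup and of division in the members' differences was not tested.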

How the data were processed

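Total RNA of the tumors was depleted of ribosomal RNA, made into stranded libraries and read as paired ends on 4 lanes in each of 2 runs. After bcl2fastq the authors ran STAR on GRCm38/mm10 and deposited its raw counts per gene and strand, with versions and annotation release not given in the sources used here. Their table of sums per mouse, used here only for gene names, equals the unstranded counts at all 55381 genes it lists.

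Reverse-strand counts were summed over the lanes and runs of a tumor, which are not replicates. filterByExpr of edgeR 4.0.16 (R 4.3.3) kept 22187 of 55385 genes. After TMM scaling, 1 quasi-likelihood model held all 8 tumors, and p-values were adjusted by Benjamini-Hochberg with a threshold of 0.05. The SE is the log2 fold change divided by the root of F, and 95% intervals use 7.06 degrees of freedom. The comparisons were G164 against G144, G174 against G184, the difference of these, and G184 against G144. Nothing says that the tumors of a mouse arose independently. DESeq2 1.42.0, RLE scaling, library size, no filter, unstranded counts, single runs, only the mice compared and each tumor left out were tried, and 3 alternatives were added after the data were seen. Of the reads 48.0% to 52.3% were counted in genes, and the rest stayed out of library sizes.

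Names and exon lengths come from GENCODE M21 (54487 identifiers matched with their version, 657 with another, 241 not), matches to other genes from blastn 2.17.0, and tables and plots from Python 3.11.15. The members and all lists were chosen with earlier results of these data known. Named are all called members, the 6 most abundant per length, Vegfa, Car9, Slc2a1, Ldha, Hif1a and Epas1, and up to 5 called genes of each pathway list with the largest change; further members are given with values to account for all 38. The fit was tested on simulated data. Marker lists cover epithelium, basal cells, endothelium, fibroblasts, macrophages, neutrophils, T and B cells, muscle, adipocytes, erythroid cells and mitosis.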

Additional observations from a re-analysis of the deposited data

Results flagged for a closer look

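For 15 members the change in homozygotes differed from that in heterozygotes by the edgeR test of the difference itself (adjusted p under 0.05), as reported above. The same contrast sets the younger mice over the older mice, so zygosity and age cannot be told apart in it. The differences, homozygous minus heterozygous on the log2 scale, were 2.45 for Car9, 2.35 for Egln3, 2.05 for Vegfa, 2.03 for Aldoc, 1.43 for Eno1, 1.19 for Gapdh, 1.18 for Ddit4, 1.17 for Tpi1, 1.09 for Pgk1, 1.08 for Ero1l, 0.99 for Pgam1, 0.70 for Gpi1, 0.69 for Pkm, 0.56 for Bnip3l and −1.44 for Epas1. With 2 tumors a mouse, no single tumor could be tested as standing apart from its group.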

How the results depend on the processing

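Of the 609 values that called members took when the normalization, filter, tool, strand, run or set of tumors was changed, 483 kept their call, 126 lost it and 0 changed sign. The counts of members called moved by over 1.5 times as follows, with the cause not tested. Without the filter on low counts they were 7 in heterozygotes, 17 in homozygotes and 17 between the controls, against 4, 11 and 9. With DESeq2 they were 7, 20, 23 for the difference (against 15) and 14 between the controls. In a fit of only the mice compared, 6 were called in homozygotes. Leaving out 1 tumor at a time gave 0 to 5 in heterozygotes, 1 to 11 in homozygotes, 9 to 17 for the difference and 1 to 11 between the controls, where a mouse left with 1 tumor is assumed to vary like the others. Without both tumors that held muscle transcripts the counts were 0, 6, 7 and 0 (heterozygotes, homozygotes, difference, controls), with 2 fewer residual degrees of freedom. Apart from exchanging the control mouse and leaving out both these tumors, Aldoc kept its call in homozygotes, in the difference and between the controls. With the same exceptions Car9, Ddit4, Egln3, Eno1, Ero1l, Gapdh and Tpi1 kept theirs in the difference. Without these 2 tumors Aldoc lost its call between the controls, and Ero1l and Tpi1 lost theirs in the difference. With the control mouse exchanged the counts were 0 and 0, and the sign turned in heterozygotes for Egln3 (0.082), Aldoc (0.21) and Eno1 (0.21), and in homozygotes for Egln3 (−0.086), Ddit4 (−0.039), Aldoc (−0.0022) and Gapdh (−0.13); this alternative and the one without muscle were chosen after the data were seen. No paired analysis was possible because the mice compared share at most the tumor number 6, which marks no common animal or batch. Whether more depth would change these calls was not tested.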
